A study of Mus musculus with 8 samples.

Results

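A set of 10 long noncoding RNAs (lncRNAs) that are widely studied in mammals was followed in testes of Iqch mutant and wild-type mice: Malat1, Neat1, Tug1, Miat, Meg3, Kcnq1ot1, Gas5, Snhg1, Snhg8 and Snhg11. They were chosen by name, with earlier results of these data known. All 10 were found among the 17127 genes of the deposited table. They passed the test minimum of 2.2 CPM (reads per 1000000 of the library) in at least 2 libraries of a group. GENCODE M39 types 9 of them as lncRNA and Tug1 as protein coding. The libraries were RNA-seq of whole testes from males aged 4 months, with 4 wild-type libraries (WT, replicates 1 to 4) and 3 libraries of Iqch-/- mice (replicates 1, 2 and 4), each from 1 mouse; mutant 3 is not analysed here. The mutants carry small CRISPR-Cas9 deletions in a coding exon of Iqch on a B6CBAF1 hybrid background, and the study refers its phenotyping and an RNA-seq coverage plot to the line mu7, while the labels name no line for single libraries. The reads behind a library numbered 32859673 to 37551057 in wild type and 32064384 to 34806129 in mutants. Iqch itself stood at 208 ± 11.3 CPM in wild type (SD over 4 mice) and at 67.3 ± 2.25 CPM in the 3 mutants. The groups did not overlap. The two-sided exact permutation p, doubling the smaller tail, was 0.0571, the smallest this form allows for 4 against 3 libraries.

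The lncRNAs are transcripts that act mainly as RNA and not through a protein. Malat1 and Neat1 stay in the nucleus: Malat1 gathers in nuclear speckles, where splicing factors are stored, and Neat1 is the scaffold of paraspeckles. Gas5, Snhg1, Snhg8 and Snhg11 are host genes, whose introns carry small nucleolar RNAs (snoRNAs), the guides for chemical marking of ribosomal RNA. Meg3 and Kcnq1ot1 are imprinted, Meg3 expressed from the maternal and Kcnq1ot1 from the paternal copy. The testis is known for expressing many lncRNAs, most of them in meiotic and postmeiotic germ cells.

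Most of the named lncRNAs did not fall with the mutation. Of the 10, 6 were higher in mutants (Snhg11, Meg3, Neat1, Gas5, Malat1 and Tug1), 1 was lower (Snhg8) and 3 were not called (Snhg1, Kcnq1ot1 and Miat), at a false discovery rate (FDR) of 0.01 in limma on log2(CPM + 0.1). Apart from Tug1, the higher ones rose by between 2.30-fold and 8.17-fold in mean CPM, whereas the ratio of means was 1.16 for Tug1 and 0.837 for Snhg8. Of all 17126 genes tested, 36.3% were called higher and 14.2% lower. Of the 1916 genes typed as lncRNA, 10.8% (206) were called higher and 25.6% (490) lower. Over the 10 members the median log2 fold change was 0.72; it was 1.20 over the 9 typed as lncRNA, 0.12 over all genes and -0.14 over all lncRNAs. Wild-type and mutant values did not overlap for 8 of the 10 members, against 62.3% of all genes and 49.6% of all lncRNAs. CPM divides by each library's total: after median-of-ratios scaling the median of all genes moved from 0.121 to -0.013 on the log2 scale. Of the 10 members 5 were then called higher and 2 lower. Tug1 was no longer called (log2 fold change 0.08) and Miat was called lower (-0.52). Under that scaling 4627 of the 17126 genes were called higher and 4294 lower. Of the 1916 lncRNAs 152 were called higher and 712 lower.

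**Figure D1:**
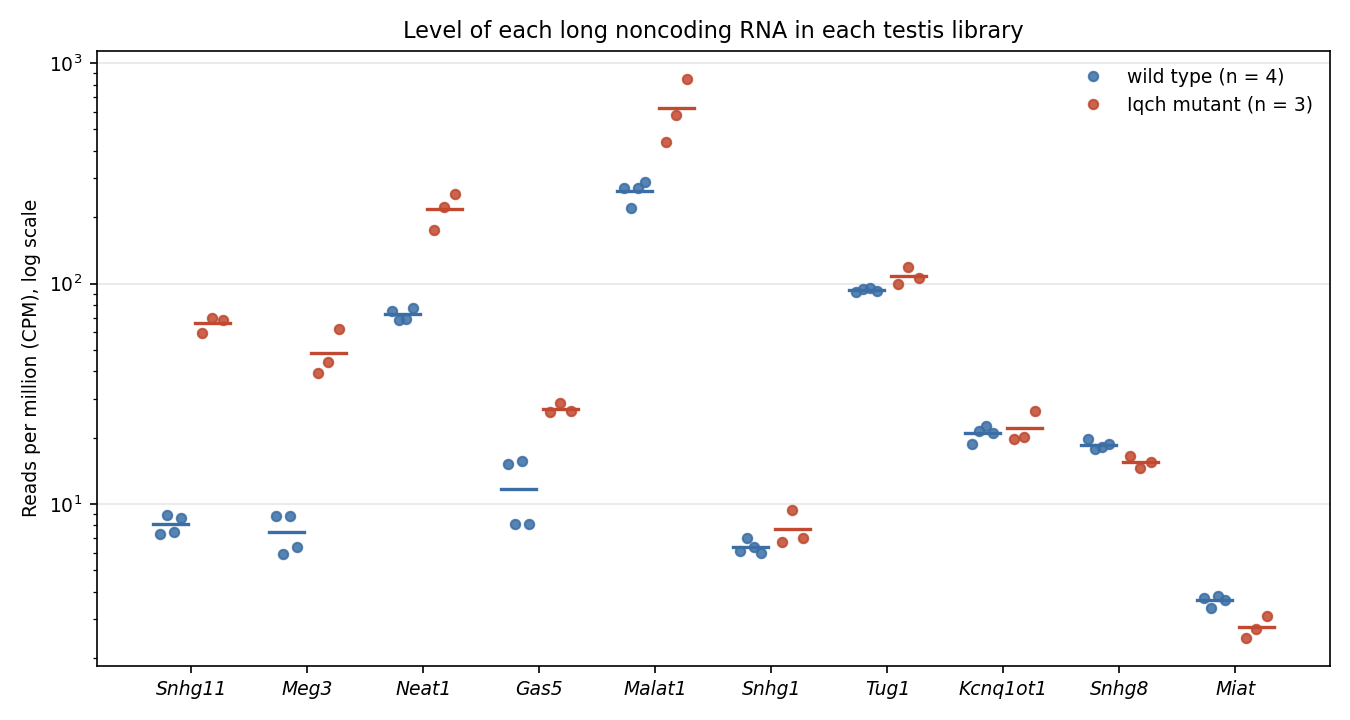
CPM (log axis) of each of the 10 RNAs in each library, ordered by fold change; points are single mice, wild type in blue (n = 4) and Iqch mutant in red (n = 3), and bars are group means. Snhg11, Meg3, Neat1, Gas5 and Malat1 stand apart with the mutants above, while Kcnq1ot1 and Snhg1 overlap.

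**Figure D2:**
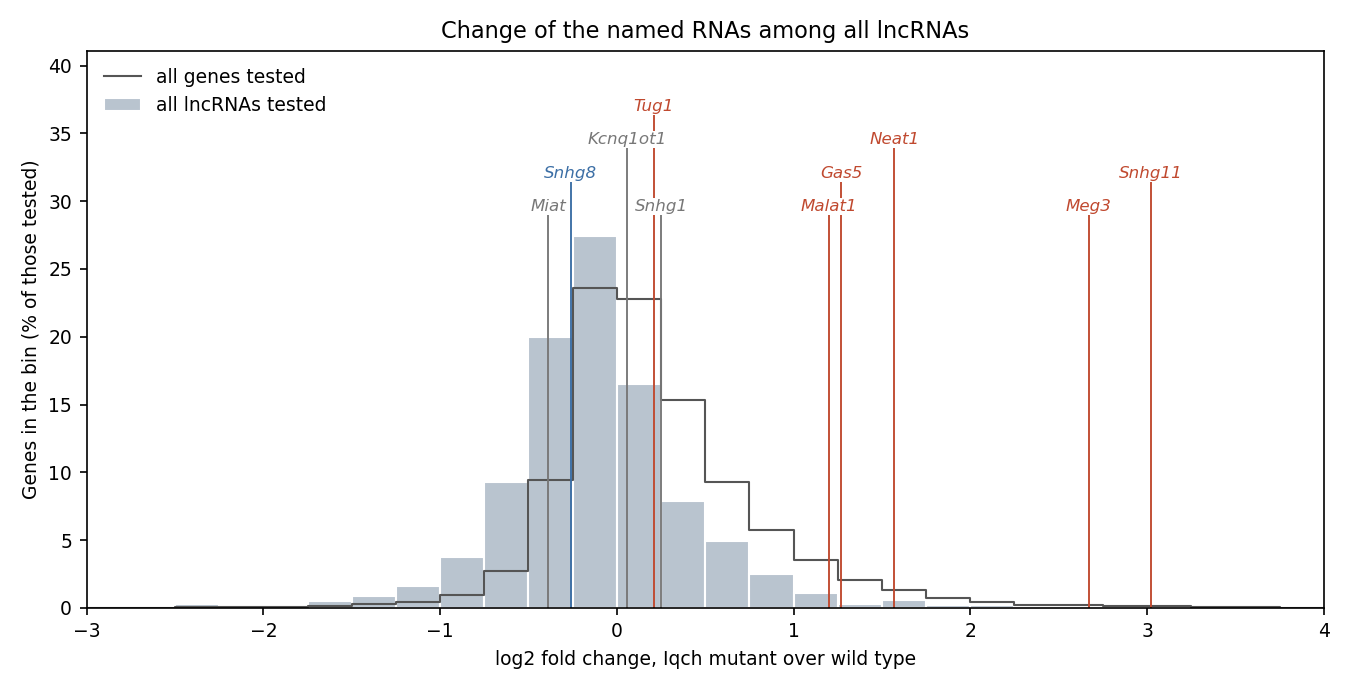
Share of tested genes by log2 fold change (mutant over wild type, bins of 0.25), grey bars for the 1916 lncRNAs and a line for all 17126 genes; vertical lines mark the 10 members in red (called higher), blue (called lower) or grey (not called). The axis leaves out 17 lncRNAs and 43 genes with larger changes. Snhg11, Meg3, Neat1, Gas5 and Malat1 lie right of 1, where few lncRNAs do, and the other members lie between -0.39 and 0.25.

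Whole testis mixes many cell types, so fewer cells of a type and less RNA per cell cannot be told apart. Leydig cell, Sertoli cell and macrophage markers were mostly higher in mutants and spermatid markers lower. The summed CPM of the 7 Leydig cell markers was 1110 to 1320 in wild type and 4630 to 4770 in mutants (6 of 7 called higher). That of the 7 Sertoli cell markers analysed was 973 to 1060 and 2050 to 2180 (7 of 7 higher, 5 after median-of-ratios scaling, which lost Amh and Sox9), and that of the 7 macrophage markers 68.3 to 74.2 and 170 to 197 (7 of 7 higher). The 6 elongating spermatid markers, such as Prm1 and Tnp1, were all called lower, with sums of 21400 to 22700 in wild type and 13600 to 15600 in mutants. Peritubular myoid markers summed to 66.2 to 90.1 and 76.5 to 102 CPM (1 of 4 higher), endothelial markers to 30.6 to 34.5 and 44.0 to 46.4 (2 of 5 higher, and also 1 lower, Vwf, after median-of-ratios scaling). Spermatogonial markers summed to 110 to 121 and 161 to 189 CPM (4 of 6 higher, 1 after the scaling). Spermatocyte markers summed to 865 to 892 and 809 to 887 CPM (1 of 7 higher, but 0 higher and 4 lower after the scaling), and round spermatid markers to 1020 to 1110 and 909 to 965 (3 of 6 lower, 5 after the scaling). Rnase10 was the 1 epididymal marker analysed of 6 listed and was called higher, at 1.77 to 2.18 CPM in wild type and 2.98 to 4.51 in mutants. No marker analysed was at 0. Their part in the changes below was not tested.

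Malat1 and Neat1 are neighbours on chromosome 19 (GRCm39, minus strand), Malat1 at chr19:5845717-5853602 and Neat1 at chr19:5874736-5897132, and both are single-exon genes in the canonical annotation, of 7886 and 22397 bases. Malat1 and the long form of Neat1 end not in an ordinary poly(A) tail but in a triple helix, in which 2 runs rich in U fold around a run rich in A and protect the end. The 100-base windows that end with the A-rich run are shown because they are a feature these 2 RNAs share beside their place in the nucleus; capitals mark the exact matches to TTTCTTTT, TTGCTTTT and AAAAGCAA. In Malat1 the window covers bases 7494 to 7593 of 7886 (chr19:5846010-5846109), ahead of the part that is cut off as a small tRNA-like RNA, and in Neat1 bases 22298 to 22397 of 22397 (chr19:5874736-5874835).
Malat1: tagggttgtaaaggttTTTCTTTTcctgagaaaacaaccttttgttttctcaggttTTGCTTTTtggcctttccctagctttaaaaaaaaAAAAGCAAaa
Neat1: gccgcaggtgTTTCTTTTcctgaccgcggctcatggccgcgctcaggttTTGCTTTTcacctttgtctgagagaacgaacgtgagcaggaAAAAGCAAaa

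Malat1 measured 271, 221, 271 and 288 CPM in wild-type mice 1 to 4 and 440, 580 and 850 CPM in mutants 1, 2 and 4. All mutant values lay above all wild-type values, and the mutants spread more widely (coefficient of variation 33.5% against 11.1%). The rise was 1.20 ± 0.16 on the log2 scale (SE; 95% interval 0.84 to 1.55, FDR 3.8e-05). By mean CPM over the 7 libraries, which takes no account of length, 0 of the genes typed as lncRNA stood above it.

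Neat1 measured 74.7, 68.4, 69.2 and 77.6 CPM in wild type and 175, 222 and 256 CPM in mutants. The groups were well apart, with the lowest mutant at 2.25 times the highest wild type, and mutant 4 was the highest library for both Neat1 and Malat1. The log2 fold change was 1.57 ± 0.10 (95% interval 1.35 to 1.79, FDR 5.1e-08). The table has 1 value per gene, so the short form of Neat1 and the long form that builds paraspeckles cannot be told apart. Within a library the log2 ratio of Neat1 to Malat1 averaged -1.85 ± 0.12 in wild type (SD, n = 4) and -1.48 ± 0.22 in mutants (n = 3). The ratios overlapped between groups (difference 0.37, two-sided exact permutation p = 0.114, also 0.114 after adjustment over 4 ratios).

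Of 13 paraspeckle protein genes, 6 (46.2%) were called higher and 0 lower, against 36.3% and 14.2% of all genes. Their median was 0.23 against 0.12 over all genes. Nono, a core paraspeckle protein that binds RNA, rose from 15.1 ± 0.782 to 29.5 ± 2.19 CPM (log2 fold change 0.96, FDR 2.4e-07). Cpsf6 (0.45) and Nudt21 (0.37), partners in choosing the site of 3′ end cleavage, rose less. After median-of-ratios scaling 4 of the 13 were higher and 2 lower, against 4627 and 4294 of all 17126 genes. Nudt21 was then not called (FDR 0.0307), nor without mutant 2 or 4 (FDR up to 0.0153). Of 12 nuclear speckle protein genes, 9 were called higher and 0 lower (median 0.30), led by Rnps1 (0.58), Srsf2 (0.51), U2af1 (0.49) and Srsf5 (0.47), all factors of splicing; 5 of the 12 were called higher after the scaling. U2af1 was then not called (FDR 0.0416), nor without wild type 2, 3 or 4 or mutant 1 or 2 (FDR up to 0.0378). Frmd8, the gene next to Neat1, was not called (72.8 ± 1.56 and 71.3 ± 2.61 CPM, log2 fold change -0.03). After the scaling Frmd8 passed the threshold as lower (-0.17, FDR 0.00745).

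Tug1 and Miat moved less. All gene positions given are those of GRCm39. Tug1 (chr11:3589785-3599673, minus strand) is known to be needed for male fertility in mice, and its locus also encodes a small protein. It measured 91.7, 94.6, 95.4 and 92.5 CPM in wild type, the tightest spread of the 10 (coefficient of variation 1.85%), and 100, 119 and 106 CPM in mutants. All mutants lay above all wild-type mice, though mutant 1 by little. The log2 fold change was 0.21 ± 0.06 (95% interval 0.09 to 0.33, FDR 0.00494). The call was lost without wild type 1 (FDR 0.0142), wild type 2 (0.0112), mutant 2 (0.0284) or mutant 4 (0.0123). Tug1 shares 892 exonic bases with Morc2a on the opposite strand (84.4 ± 2.54 and 92.0 ± 3.48 CPM, FDR 0.0316), and how the counting treated strand is not stated, so part of the reads of either gene may belong to the other.

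Miat (chr5:112361094-112377261, minus strand), a nuclear lncRNA studied in heart and nervous system, had the lowest CPM of the 10. It measured 3.74, 3.38, 3.80 and 3.67 CPM in wild type and 2.47, 2.71 and 3.10 CPM in mutants. The 3 mutants were the 3 lowest libraries. The difference of -0.39 ± 0.13 on the log2 scale (95% interval -0.68 to -0.10) missed the threshold with CPM as deposited (FDR 0.0207) and passed it after median-of-ratios (FDR 0.0037) or TMM scaling (0.00425). Its neighbour 1700028D13Rik was not called (log2 fold change 0.16).

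Meg3 (chr12:109506877-109538165, plus strand) is best known as a growth-restraining RNA of the Dlk1-Dio3 imprinted domain. It measured 8.83, 5.91, 8.79 and 6.36 CPM in wild type and 39.1, 44.2 and 61.9 CPM in mutants. The lowest mutant was at 4.43 times the highest wild type. The rise was 2.67 ± 0.17 on the log2 scale (95% interval 2.31 to 3.04, FDR 4.4e-08), and 13 of the 1916 lncRNAs had a larger one. Of the 6 domain genes listed, 3 could be analysed. Rian, a maternally expressed snoRNA host in the same domain, rose from 2.68 ± 1.08 to 10.1 ± 2.94 CPM (log2 fold change 1.93, FDR 9.5e-05). Mirg, the microRNA host further along (12.5 ± 0.990 and 12.1 ± 0.585 CPM, FDR 0.625), and Begain (4.98 ± 0.563 and 5.52 ± 0.604 CPM, FDR 0.322) were not called.

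Kcnq1ot1 (chr7:142731402-142850327, minus strand) is a very long antisense RNA that silences neighbouring genes on the paternal chromosome. It measured 18.7, 21.5, 22.6 and 21.0 CPM in wild type and 19.6, 20.1 and 26.4 CPM in mutants. Mutant 4 was the highest library and the other 2 mutants lay among the wild-type mice. The fitted log2 fold change was 0.06 ± 0.10 (95% interval -0.16 to 0.29, FDR 0.613), and it was -0.07 after median-of-ratios scaling. Of the 10 genes listed for its domain, 6 could be analysed: 2 (33.3%) were called higher and 1 (16.7%) lower, against 36.3% and 14.2% of all genes. Cd81, a membrane protein gene, rose from 52.0 ± 2.98 to 135 ± 2.61 CPM (log2 fold change 1.38, FDR 1.2e-09). Osbpl5, a lipid transfer protein gene, rose by 0.66 (FDR 2.1e-04), and Cdkn1c, a cell cycle inhibitor that the domain imprints, fell from 17.5 ± 0.696 to 13.1 ± 0.153 CPM (-0.41, FDR 2.0e-04). After the scaling 2 were called lower.

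The 4 snoRNA hosts went different ways. The members' promoters were searched on both strands for 5 motifs. The cyclic AMP response element was searched as TGACGTCA. Its core was searched as TGACG, which the full element holds once on each strand. The others were the TATA box as TATAAA, the CCAAT box by its letters, and GGGCGG, which binds Sp1-like factors. RefSeq (GRCm38.p6) gave a 300-base window, 250 bases before to 50 after the start, for 9 of the 10 members. The windows shown are those of the 2 strongest risers, Snhg11 and Meg3, of Gas5, which with Meg3 held the full response element, and of Snhg8, the member called lower; capitals mark matches. In all 32851 windows, 1.79% held TGACGTCA, 20.8% TGACG, 13.6% TATAAA, 37.4% CCAAT and 35.7% GGGCGG. A match is a run of letters and no evidence of binding. Meg3 and Gas5 have a second window each, without TGACGTCA, and Snhg11 held none of the 5 motifs. The windows are chr2:158375463-158375762 for Snhg11, chr12:109540746-109541045 for Meg3, chr1:161034916-161035215 for Gas5, all plus strand, and chr3:123508287-123508586 for Snhg8 on the minus strand.
Snhg11: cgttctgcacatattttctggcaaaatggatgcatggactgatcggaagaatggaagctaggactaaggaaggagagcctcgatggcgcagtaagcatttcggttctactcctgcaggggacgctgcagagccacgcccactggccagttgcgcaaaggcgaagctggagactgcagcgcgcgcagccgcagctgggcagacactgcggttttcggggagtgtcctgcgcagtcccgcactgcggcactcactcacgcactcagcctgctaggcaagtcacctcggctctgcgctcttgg
Meg3: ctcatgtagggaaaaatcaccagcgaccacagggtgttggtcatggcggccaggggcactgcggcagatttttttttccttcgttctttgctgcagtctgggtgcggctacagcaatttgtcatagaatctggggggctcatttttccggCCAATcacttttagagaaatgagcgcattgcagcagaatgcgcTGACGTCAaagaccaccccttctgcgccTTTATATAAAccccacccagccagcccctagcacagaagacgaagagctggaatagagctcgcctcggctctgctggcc
Gas5: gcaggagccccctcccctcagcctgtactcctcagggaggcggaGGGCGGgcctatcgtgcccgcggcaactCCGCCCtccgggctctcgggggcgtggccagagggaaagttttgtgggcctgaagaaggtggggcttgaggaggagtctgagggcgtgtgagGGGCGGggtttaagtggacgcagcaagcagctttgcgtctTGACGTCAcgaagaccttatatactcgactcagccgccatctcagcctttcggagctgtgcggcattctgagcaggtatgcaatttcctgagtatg
Snhg8: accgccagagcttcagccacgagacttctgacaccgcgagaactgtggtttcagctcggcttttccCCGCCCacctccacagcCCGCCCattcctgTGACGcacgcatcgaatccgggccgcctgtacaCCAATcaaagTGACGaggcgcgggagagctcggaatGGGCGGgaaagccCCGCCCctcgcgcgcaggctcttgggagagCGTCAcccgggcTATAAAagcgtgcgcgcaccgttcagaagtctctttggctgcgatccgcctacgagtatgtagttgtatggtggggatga

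Snhg11 (chr2:158217558-158228071 in GRCm39, plus strand) changed most of the 10. It measured 7.27, 8.91, 7.49 and 8.63 CPM in wild type and 59.4, 70.1 and 68.3 CPM in mutants. At their nearest values the groups were 6.66-fold apart, and both were tight. The rise was 3.02 ± 0.09 on the log2 scale (95% interval 2.82 to 3.21, FDR 1.5e-10), and 9 of the 1916 lncRNAs had a larger one. It holds 2 annotated snoRNA genes. The lncRNAs whose log2(CPM + 0.1) followed Snhg11 most closely over the 7 libraries were Brip1os (Pearson r 0.9973), Gm38477 (0.9946), Ppp1r36dn (0.9932), 1700084F23Rik (0.9931) and Norad (0.9915). These r values mainly reflect the 2 groups and are given as a description. Ppp1r36dn rose by 1.59 on the log2 scale and the others by 0.60 to 0.88, less than Snhg11.

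Gas5 (chr1:160861793-160866118, plus strand) accumulates when cells stop growing and holds 10 annotated snoRNA genes. It measured 15.1, 8.07, 15.6 and 8.10 CPM in wild type and 26.1, 28.7 and 26.4 CPM in mutants. Wild type 2 and 4 lay well below wild type 1 and 3, and all 3 mutants were above every wild-type mouse. The rise was 1.27 ± 0.21 on the log2 scale (95% interval 0.81 to 1.73, FDR 2.0e-04). On the opposite strand Gas5 shares 134 exonic bases with Zbtb37 (17.1 ± 0.907 and 21.6 ± 2.40 CPM, log2 fold change 0.33, FDR 0.00349; 0.0416 after median-of-ratios scaling), so its value is uncertain to that extent.

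Snhg1 (chr19:8700319-8703812, plus strand) holds 8 annotated snoRNA genes. It measured 6.13, 7.02, 6.39 and 5.99 CPM in wild type and 6.69, 9.39 and 6.97 CPM in mutants. Mutant 2 was the highest library and the other 2 mutants lay within the wild-type range. The log2 fold change was 0.25 ± 0.13 (95% interval -0.02 to 0.52, FDR 0.1), so a change of that size was not resolved. Snhg1 shares 743 exonic bases with Slc3a2, an amino acid transporter subunit gene on the opposite strand that rose from 118 ± 7.48 to 244 ± 6.30 CPM (log2 fold change 1.05, FDR 7.3e-09). Without a stated strand setting the reads of the shared bases cannot be assigned. Wdr74, on the same strand as Snhg1, was not called (log2 fold change 0.08).

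Snhg8 (chr3:123301192-123302578, minus strand), with 1 annotated snoRNA gene, was the member called lower. It measured 19.7, 17.8, 18.1 and 18.7 CPM in wild type and 16.5, 14.6 and 15.5 CPM in mutants. All mutants lay below all wild-type mice. The difference was -0.26 ± 0.07 on the log2 scale (95% interval -0.41 to -0.10, FDR 0.00776). The call held without mutant 1 (FDR 0.00700) and was lost without any other single library: the FDR was 0.0245, 0.0118, 0.0122 and 0.0150 without wild type 1 to 4, 0.0387 without mutant 2 and 0.0238 without mutant 4. It held after median-of-ratios scaling, at -0.39 (FDR 5.5e-04).

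Ratios within a library do not depend on scaling. The log2 ratio of Gas5 to Snhg8 averaged -0.73 ± 0.51 in wild type and 0.79 ± 0.16 in mutants, a difference of 1.52. That of Gas5 to Snhg1 averaged 0.80 ± 0.57 and 1.82 ± 0.19, a difference of 1.02. That of Snhg1 to Snhg8 averaged -1.53 ± 0.15 and -1.02 ± 0.35, a difference of 0.51. In all 3 the groups did not overlap. The two-sided exact permutation p, doubling the smaller tail, was 0.0571 each, the smallest this form allows. Adjusted over the 4 ratios computed it was 0.0762, so none passed 0.05.

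**Figure D3:**
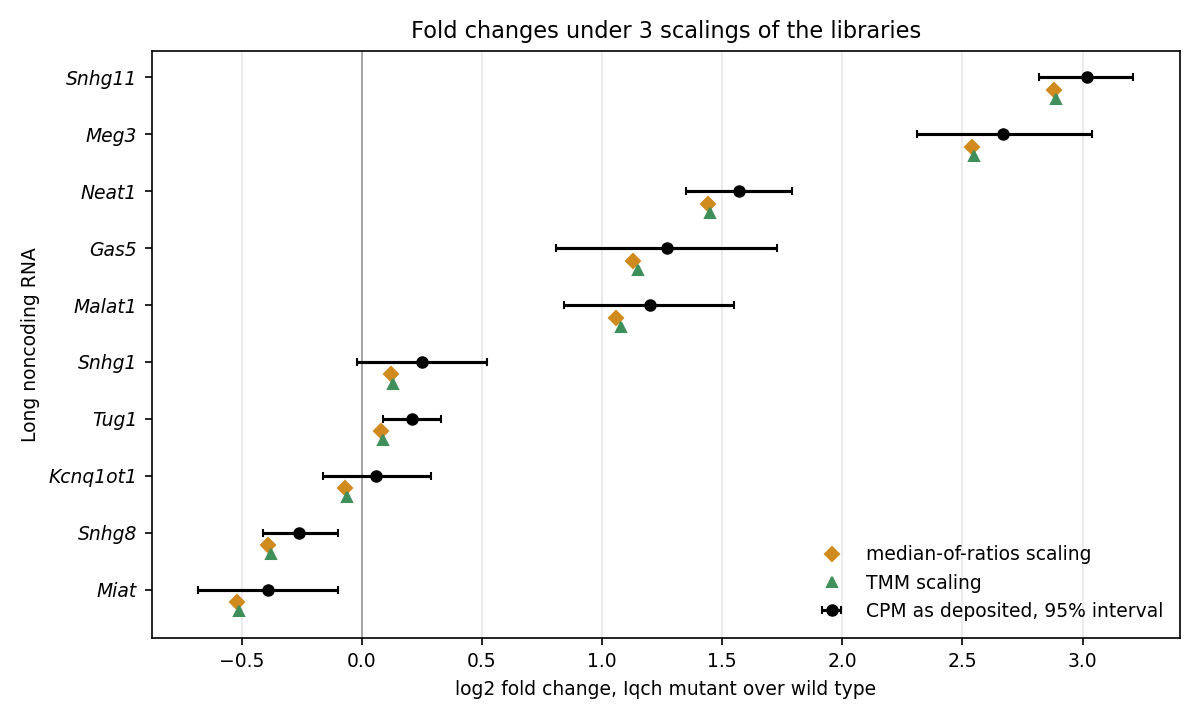
Log2 fold change (mutant over wild type) of each of the 10 RNAs with CPM as deposited (black, with the 95% interval) and after median-of-ratios (orange) or TMM scaling (green). Scaling moved each value down, to 2.88 for Snhg11 and -0.52 for Miat; Kcnq1ot1 crossed 0, from 0.06 to -0.07.

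Other genes of the same kinds were counted from lists chosen by name, with earlier results of these data known. Of 15 other small RNA host genes analysed, of 19 listed, 7 (46.7%) were called higher and 0 lower (median 0.66). Of all genes 36.3% were called higher and 14.2% lower. Mir22hg, the host of a microRNA, rose from 5.38 ± 0.448 to 17.4 ± 2.48 CPM (log2 fold change 1.67, FDR 7.9e-08). The snoRNA hosts Snhg6 (0.97), Snhg18 (0.88) and Snhg20 (0.80) followed. Of the 105 other lncRNAs that GENCODE tags as small RNA hosts, 25.7% were called higher and 18.1% lower. The counts of the 15 listed hosts were 7 and 0 after median-of-ratios scaling too, while those of the 105 tagged ones were 22 and 24. Of 16 other widely studied lncRNAs analysed, of 35 listed, 7 (43.8%) were called higher and 3 (18.8%) lower (median 0.34). Of all lncRNAs 10.8% were called higher and 25.6% lower. Beside Rian, Ftx (0.93), a regulator at the X inactivation centre, and Cerox1 (0.91), a regulator of respiratory chain genes, were among the higher ones. Pvt1, the neighbour of Myc, fell from 15.1 ± 0.666 to 5.82 ± 1.36 CPM (-1.38, FDR 2.3e-06).

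Proteins that bind or break down host RNAs gave smaller changes. Of 9 core snoRNP protein genes, 5 (55.6%) were called higher and 0 lower (median 0.29), against 36.3% and 14.2% of all genes. Among the higher ones were Dkc1 (0.65), the pseudouridine synthase, Nop56 (0.58) and Nhp2 (0.37), structural subunits, and Fbl (0.50), the methyltransferase. After median-of-ratios scaling 3 were higher and 1 lower, against 4627 and 4294 of all 17126 genes. Without wild type 4 there was also 1 lower call. Fbl was not called after the scaling (FDR 0.0207), nor without wild type 4, mutant 2 or mutant 4 (FDR up to 0.0281). Nonsense-mediated decay degrades the spliced RNA of Gas5 and related hosts. Of its 10 genes, Upf3b (0.32) and Smg8 (0.24) were called higher and Smg9 (-0.26) lower, and the median was 0.001; after the scaling 0 were higher and 5 lower. Without mutant 2, 0 decay factors were called higher, and 1 was without wild type 1, 2 or 3, mutant 1 or mutant 4.

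**Figure D4:**
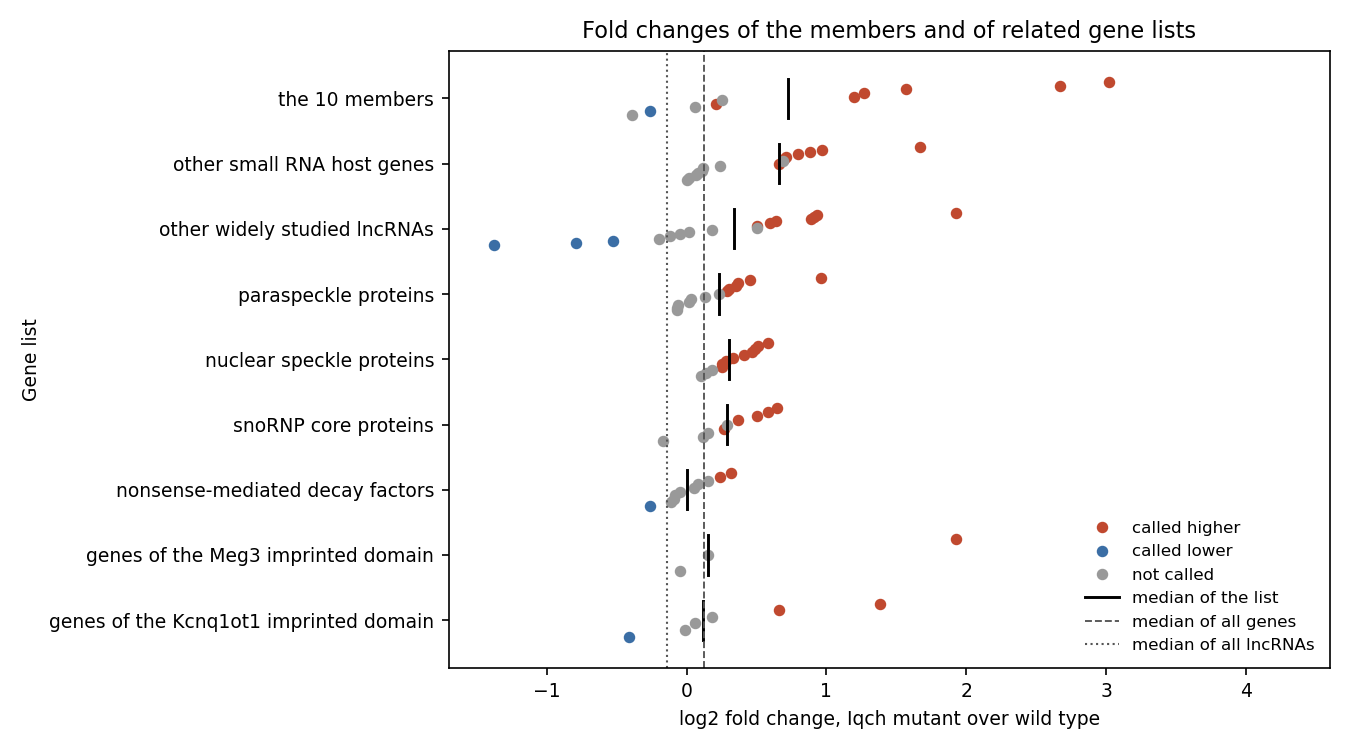
Log2 fold change (mutant over wild type) of each gene in the 10 members and 8 related lists, 1 point per gene, red for called higher, blue for called lower and grey for not called; black bars are list medians, and the dashed and dotted lines are the medians of all genes (0.121) and all lncRNAs (-0.138). The members reach furthest right, and the decay factors centre near 0.

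Levels between the members can be set side by side only per length. Per kilobase of annotated exons, wild-type testis held most Malat1 (33.4 ± 3.69 CPM per kb, SD, n = 4), then Snhg8 (13.4 ± 0.593), Tug1 (9.61 ± 0.178), Neat1 (3.24 ± 0.198), Gas5 (2.78 ± 0.999), Snhg1 (1.83 ± 0.130), Snhg11 (0.947 ± 0.0958), Meg3 (0.387 ± 0.0805), Miat (0.346 ± 0.0178) and Kcnq1ot1 (0.223 ± 0.0172). Neat1 and Gas5, Gas5 and Snhg1, and Meg3 and Miat overlapped in this order. In mutants the per-kilobase level of Snhg11 was 7.73 ± 0.673, that of Gas5 6.39 ± 0.341 and that of Meg3 2.51 ± 0.620, and the range of Snhg11 lay above that of Gas5. The order rests on the length used as divisor. With the same CPM of the whole gene divided by the canonical transcript's length, Tug1 came first in wild type, at 58.0 ± 1.07. Kcnq1ot1 was then at 12.2 ± 0.936. That length is 1612 of 9734 exonic bases for Tug1 and 1722 of 93852 for Kcnq1ot1. Reads of all exons stay in the CPM, so these values are not levels of the canonical transcripts. In mutants Gas5 then stood above Snhg11, at 40.4 ± 2.16 against 11.2 ± 0.978.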

How the data were processed

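RNA from whole testes, extracted with TRIzol and treated with DNase, was made into TruSeq RNA libraries and sequenced as paired ends; how RNA was selected is not given in the sources used here. The authors used Trimmomatic for trimming, Subread for mapping to GRCm39 and featureCounts for counting by gene (strand setting and annotation release not given in the sources used here), set a floor of 75 reads in 2 or more libraries per group, made their own calls with edgeR and DESeq2, and deposited CPM. The deposited CPM sum to 1000000 in each library and carry no between-sample factor. All values (100%) were whole multiples of 1 step (tolerance 0.001), taken as 1 read, 0.0266 to 0.0312 CPM.

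Groups came from the labels; 7 of the 8 samples listed were analysed. The 17126 genes that reached 2.2 CPM in 2 libraries of either group were fitted on log2(CPM + 0.1) by limma 3.58.1 (R 4.3.3; eBayes, trended prior), with Benjamini-Hochberg adjustment over all of them and calls at an FDR of 0.01. On simulated libraries of 16562 genes tested, 196 of 196 changed genes were called, with 2 unchanged ones. For ratios and Iqch, the exact permutation test covered its 35 possible assignments, doubling the smaller tail. Replicates are separate mice. The members and lists were chosen with earlier results of these data known. Genes named beyond the members are, per list, at most 4 called genes with the largest changes, table genes overlapping a member or within 10 kb of it, the 5 lncRNAs most like Snhg11, and markers; uncalled Mirg and Begain were added after their values were seen, and 2 genes that this rule names are not reported here. Annotation was GENCODE M39 on GRCm39 (17045 genes found); exon lengths are unions over its transcripts. Promoter windows were RefSeq's. Alternatives were pseudocounts of 1 and 0.01, a CPM minimum of 0 or 5, median-of-ratios and TMM scaling, a replicate block, and each library left out. Python 3.11.15, pandas 2.3.3, SciPy 1.17.1 and matplotlib 3.10.9 were used. Splicing and isoforms were not analysed here.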

Additional observations from a re-analysis of the deposited data

How the results depend on the processing

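The direction of change held for Snhg11, Meg3, Neat1, Gas5, Malat1, Tug1, Snhg8, Miat and Snhg1 under every alternative run, and the first 5 were called under all of them; leaving out 1 library gave log2 fold changes of 2.97 to 3.09, 2.48 to 2.81, 1.44 to 1.72, 1.11 to 1.43 and 0.95 to 1.42. The members called lower were 2 under median-of-ratios scaling, 2 under TMM scaling, and 0 to 1 with 1 library left out; those called higher were 5 under both scalings. Median-of-ratios and TMM scaling called 4294 and 4107 of all genes lower, in place of 2428, and 13 and 12 genes of the companion lists lower, in place of 5. Of the calls among all genes 71.9% were higher with CPM as deposited, 51.9% under median-of-ratios and 53.9% under TMM scaling, and of the calls among lncRNAs 70.4%, 82.4% and 81.6% were lower. Tug1 was 0.09 (FDR 0.156) under TMM scaling. With 1 library left out, 156 to 205 lncRNAs were called higher and 393 to 467 lower.

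Replicate numbers did not pair the samples: deviations of same-numbered wild-type and mutant libraries correlated at 0.0261, 0.0094 and -0.0977. With the replicate block, in which wild type 3 has no partner, 5583 genes were called higher and 2139 lower, the members called lower were 0 (Snhg8, FDR 0.0151) and those called higher 6. The minimum of 5 CPM left out Miat. The planned count-based fits with edgeR and DESeq2 on reads recovered from CPM were not run. Miat, at 2.47 to 3.80 CPM, rests on the fewest reads.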

Other observations

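The other 1907 lncRNAs, with the 9 members left out, were called higher in 201 cases and lower in 489. Those that GENCODE tags as small RNA hosts (105) were called higher in 25.7% and lower in 18.1% of cases, with a median log2 fold change of 0.075, and those without the tag (1802) in 9.66% and 26.1%, with a median of -0.15. After median-of-ratios scaling the tagged ones were called higher in 22 and lower in 24 cases, in place of 27 and 19, so the balance turned, and the medians were -0.059 and -0.282. The 162 with a symbol other than a Gm, Rik or clone name were called higher in 35 and lower in 38 cases, and the 1745 with such a name in 166 and 451. Among the 477 of these lncRNAs with the highest mean CPM, 7.34% (35) were called higher and 40.0% (191) lower, and 24 and 275 after the scaling. Among the 477 with the lowest mean 14.0% (67) were higher and 18.2% (87) lower, and 49 and 108 after the scaling. The mean covers all 7 libraries. None of these differences between groups of lncRNAs was tested.

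The wild-type mice fell apart on Gas5. Mice 1 and 3 (15.1 and 15.6 CPM) lay above mice 2 and 4 (8.07 and 8.10), and the gap between the nearest values was 0.89 on the log2 scale; 15 of the 17126 genes, Gas5 included, had a gap as large between these 2 pairs, 11 of them higher in mice 1 and 3. Meg3 parted the same mice in the same direction with a gap of 0.46. Of the 99 genes that reached or passed this gap, 46 were higher in mice 1 and 3. Miat also had mice 1 and 3 higher, with a gap of 0.02. Snhg11 went the other way, with mice 2 and 4 (8.91 and 8.63 CPM) above mice 1 and 3 (7.27 and 7.49). Its gap was 0.2, which 682 genes reached or passed. The split was noticed in these values, follows no label and was not explained.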
